A study of Homo sapiens with 14 samples.

Results

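The tumour suppressor p53 is a transcription factor that is activated by DNA damage and other stress and that switches on genes of cell cycle arrest, DNA repair, apoptosis and metabolic restraint. It also switches on its own inhibitor, the ubiquitin ligase MDM2, so that its activity is limited by a feedback loop, and MDM4 is a relative of MDM2 that inhibits p53 by binding it. In neuroblastoma, a childhood tumour of the sympathetic nervous system, MYCN amplification coexists with p53 that is most often not mutated at diagnosis, and MYC family proteins are known to act on this pathway at several points.

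The 9 genes described here were taken by symbol from the count tables of the study: the inhibitors MDM2 and MDM4, and the target genes CDKN1A, GADD45A, SESN1, SESN2, TP53INP1, RRM2B and ZMAT3. They are 9 of the 17810 genes in the table of the OmoMYC experiment and 9 of the 19143 in the table of the parental experiment. All 9 genes passed the filter on low counts, together with 13803 and 14470 genes in all. The gene for p53 itself is not one of the 9 and is not analysed here.

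Gene expression was measured by RNA-seq of 14 libraries of CHP-134, an established human neuroblastoma line with MYCN amplification. In the OmoMYC experiment, cells carrying a lentiviral, doxycycline-inducible (Tet-On) transgene for either enhanced green fluorescent protein (EGFP, 3 libraries) or OmoMYC (3 libraries) were given 1 µg/ml doxycycline for 3 days. OmoMYC is an altered bHLHZip region of MYC, made to pair with MYC family proteins and their partner MAX and so to block them. In the parental experiment, CHP-134 cells without any transgene were treated for 18 hr with 500 nM dTAG47 (4 libraries) or with the solvent DMSO (4 libraries). The compound dTAG47 directs proteins that carry an FKBP12(F36V) tag to degradation, and the parental cells carry no tagged protein, so that the comparison measures effects of the compound without its target. Both arms of the OmoMYC experiment received doxycycline and were grown in tetracycline-approved serum. The EGFP and OmoMYC cells are separate transduced and drug-selected lines, so that a difference between the lines cannot be told apart from an effect of OmoMYC.

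Libraries held 28060817 to 38358128 counts in the OmoMYC experiment and 40861430 to 53451641 in the parental one. Expression is given as CPM, the usual depth-scaled count of a gene, with edgeR's TMM scaling applied to each experiment on its own. The MYC gene, whose reads include those of the MYC-derived transgene, had 16 to 20 counts in EGFP libraries, 15040 to 20295 in OmoMYC libraries and 18 to 43 in parental libraries. Of 10 markers of the sympathetic lineage, 8 to 9 reached 1 CPM in each group. TH was below it in all 4 groups, and DBH in all groups but OmoMYC. Their summed level was 1530 to 1870 CPM with EGFP and 1820 to 1940 CPM with OmoMYC. Immune markers summed to at most 1.97 CPM and Schwann cell markers to at most 13.5 CPM in any library. Of 6 fibroblast markers, COL3A1, DCN and LUM were below 1 CPM in every group, and the list summed to 78.8 to 93.1 CPM with EGFP and 72.8 to 85.3 CPM with OmoMYC, and to 28.8 to 30.1 CPM with DMSO and 26.8 to 32.5 CPM with dTAG47. In bulk libraries, fewer cells that express a gene and less RNA of that gene per cell cannot be told apart.

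The sites by which p53 reaches its target genes are built of 2 copies of a 10-base motif, and these letters were looked for near the start site of each of the 9 genes. The window reached from 2500 bases before to 2500 after the start of the canonical transcript in the GRCh37 sequence (the sequence of hg19), and a match was a run of 20 bases that fit 2 adjoining copies of the p53 consensus with at most 2 mismatches, none of them at the C or G of either core. The motif reads the same on both strands. A match was found for 5 of the 9 genes, MDM2, CDKN1A, GADD45A, RRM2B and ZMAT3, and in 3.67% of the windows of 14378 tested genes (528 windows). The matches of 4 of these genes are shown 5′ to 3′ on the strand of the gene, with the 4-base core of each copy in capitals. Their likeness to each other was set by the search.
MDM2: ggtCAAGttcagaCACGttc
CDKN1A: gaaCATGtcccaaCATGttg
GADD45A: gaaCATGtctaagCATGctg
ZMAT3: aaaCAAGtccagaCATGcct
In MDM2 the match lay in intron 1, 755 bases after the start site (chr12:69202703-69202722, plus strand, 2 mismatches). In CDKN1A it lay upstream of the canonical start site, at -2256 bases (chr6:36644226-36644245, plus strand, 2 mismatches). There it overlapped the annotated start of the gene at 36644237. In GADD45A it lay in intron 3 (chr1:68152458-68152477, plus strand, 1 mismatch). In ZMAT3 it lay in intron 1 and had 0 mismatches (chr3:178787976-178787995, minus strand). The match of RRM2B lay in intron 1, 2112 bases after its start. No match was found in the windows of MDM4, SESN1, SESN2 and TP53INP1, which says only that these letters were not in those windows. For MYC proteins the usual motif is the E-box CACGTG, which reads the same on both strands. Promoters of 6 of the 9 genes (12 entries of RefSeq on GRCh38.p14, 250 bases before to 50 after a start) were at hand, those of MDM2, MDM4, CDKN1A, SESN1, SESN2 and ZMAT3. The E-box letters occurred in 0 of these 12 windows, and in 8.97% of 16012 promoter windows of tested genes.

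The level of the 9 genes was first compared within each group, as CPM per kilobase of exon. GADD45A, which binds stress kinases and cell cycle proteins, was highest in all 4 groups, with 33.5 ± 0.194 with EGFP, 35.7 ± 2.32 with OmoMYC (SD, n = 3 each), 33.6 ± 0.489 with DMSO and 32.5 ± 0.675 CPM per kilobase with dTAG47 (SD, n = 4 each). MDM4 came next in every group, between 19.8 ± 1.19 (dTAG47, n = 4) and 25.2 ± 1.77 CPM per kilobase (EGFP, n = 3). The next places were held by CDKN1A and MDM2. CDKN1A stood above MDM2 in the OmoMYC experiment, with 20.1 ± 1.75 against 15.9 ± 0.843 CPM per kilobase with EGFP (SD, n = 3). It stood below MDM2 in parental cells, with 12.6 ± 0.916 against 16.9 ± 1.097 CPM per kilobase with DMSO (SD, n = 4). Per kilobase of the longest transcript instead, the libraries of CDKN1A and MDM2 overlapped in both parental groups. By that length the libraries of MDM4 and CDKN1A overlapped with EGFP and with OmoMYC. SESN1 was lowest in all 4 groups, at 1.55 ± 0.248 (EGFP), 2.13 ± 0.0612 (OmoMYC), 1.64 ± 0.190 (DMSO) and 1.63 ± 0.110 CPM per kilobase (dTAG47). Between these, neighbours in the order overlapped in their libraries in several places. With EGFP the libraries of TP53INP1 (6.35) and ZMAT3 (5.51) overlapped, as did those of ZMAT3 and SESN2 (4.85) and those of SESN2 and RRM2B (3.92 CPM per kilobase). With OmoMYC the libraries of no neighbouring pair overlapped per kilobase of all exons. There TP53INP1 stood at 9.86 and SESN2 at 8.22, above ZMAT3 at 5.47 and RRM2B at 4.01 CPM per kilobase. In parental cells ZMAT3 and TP53INP1 overlapped in both groups, as did RRM2B and SESN2. The experiments were scaled apart, so levels of the same gene in parental and engineered cells are set side by side only. As a ratio, the gap was widest in CDKN1A, at 60.3 ± 5.24 CPM with EGFP and 37.9 ± 2.74 CPM with DMSO, and in SESN2, at 16.8 ± 1.78 and 11.04 ± 1.29 CPM.

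**Figure D1:**
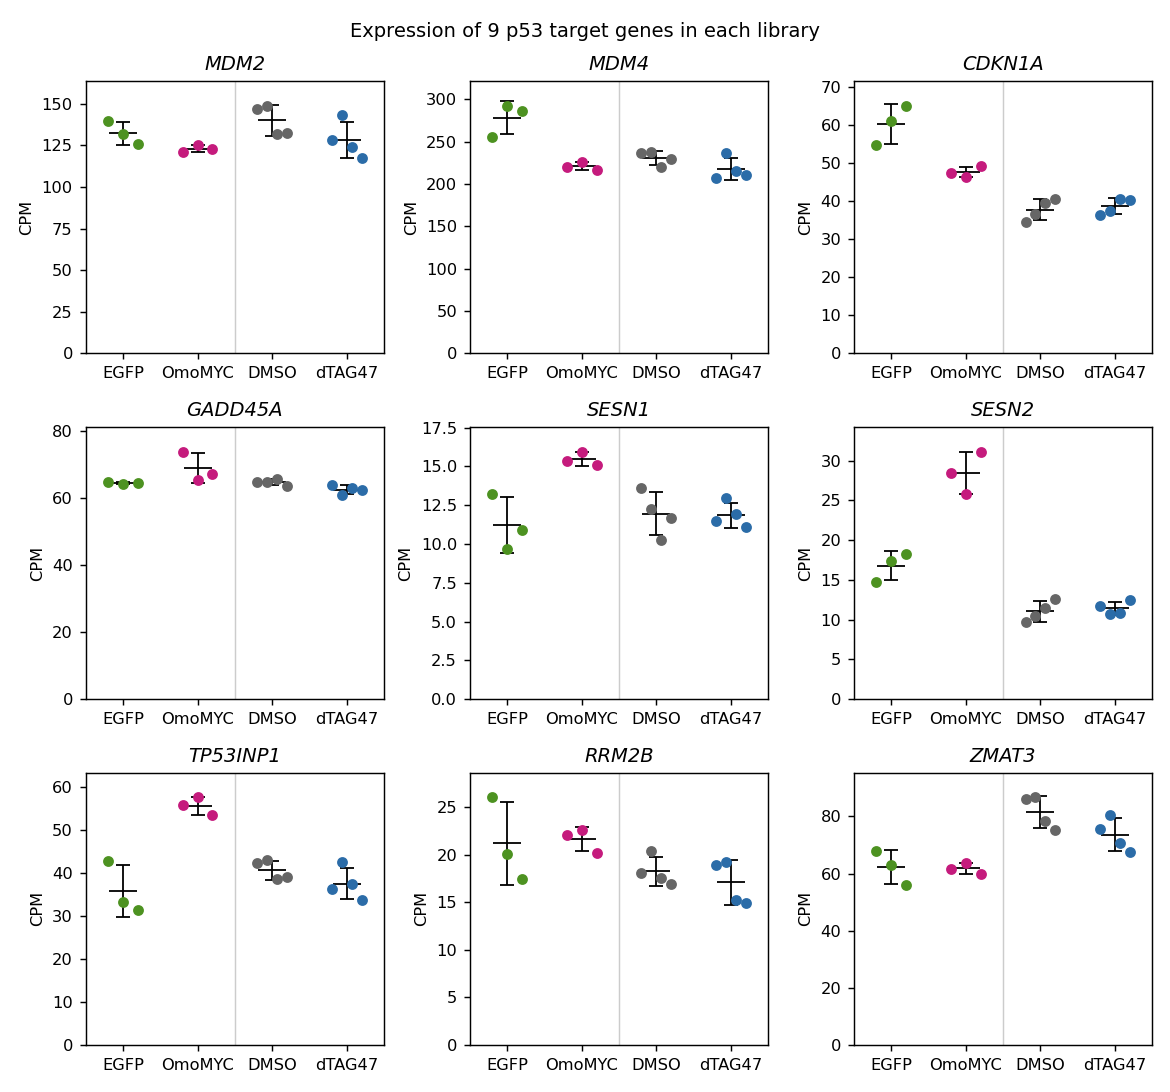
Expression of each gene in CPM (vertical axes, from 0) in the 14 libraries, with 1 point per library and black marks for the mean and SD of each group; the grey line parts the 2 experiments, which were scaled apart. SESN1, SESN2 and TP53INP1 lie higher in all 3 OmoMYC libraries than in all 3 EGFP libraries, and MDM4 and CDKN1A lie lower. GADD45A also lies higher and MDM2 lower, each by a narrow gap. DMSO and dTAG47 libraries overlap for all 9 genes.

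The first comparison asked how p53 target genes differ when OmoMYC rather than EGFP is induced. The 9 genes did not move one way. SESN1, SESN2 and TP53INP1 rose, MDM4 and CDKN1A fell, and MDM2, GADD45A, RRM2B and ZMAT3 did not pass the test. Called genes are those with an adjusted p below 0.05 (edgeR's quasi-likelihood test with Benjamini-Hochberg adjustment over all genes tested). With 5 of 9 genes called (55.6%), the share was close to that of all tested genes, of which 53% were called, 27.3% as higher and 25.7% as lower. The groups did not overlap in 7 of the 9 genes, and in 62.3% of all tested genes. The median log2 fold change of the 9 genes was 0.03, and that of all tested genes was 0.01. Of the 5 genes with a match to the p53 motif 1 was called, CDKN1A, and of the 4 without one 4 were called, a grouping seen after the values and not tested.

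Among the inhibitors of p53, MDM4 (ENSG00000198625.8, chromosome 1 from 204485507 to 204527248 of GRCh37) was at 256, 292 and 286 CPM in EGFP replicates 1 to 3 and at 220, 226 and 217 CPM in the OmoMYC replicates. No OmoMYC library reached the lowest EGFP library. The mean fell from 278 ± 19.5 to 221 ± 4.58 CPM (SD, n = 3 each), or -0.33 on the log2 scale (SE, the standard error of the fit, 0.07, adjusted p = 0.00257, edgeR), a level 20.5% lower. MDM2 (ENSG00000135679.17, chromosome 12 from 69201957 to 69239324) was at 140, 132 and 126 CPM with EGFP and at 121, 125 and 123 CPM with OmoMYC. The OmoMYC libraries again lay below the EGFP libraries, the nearest of them by less than 1 CPM. The log2 fold change of MDM2 was -0.11 (95% interval -0.25 to 0.04) and was not called (adjusted p = 0.210, edgeR). Without EGFP replicate 3 it was -0.17 and was called (adjusted p = 0.0476). Within a library the ratio of the raw counts of both genes does not depend on scaling. There were 1.83, 2.22 and 2.28 counts of MDM4 for each count of MDM2 in the EGFP replicates and 1.82, 1.81 and 1.77 in the OmoMYC replicates. The ratio was lower in all OmoMYC libraries, with EGFP replicate 1 next to them. In parental cells it was 1.60 to 1.73 with DMSO and 1.62 to 1.79 with dTAG47, and the groups overlapped.

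CDKN1A (ENSG00000124762.9, chromosome 6 from 36644237 to 36655114) encodes p21, an inhibitor of cyclin-dependent kinases and the main effector of arrest by p53. It was at 54.8, 61.1 and 65.2 CPM in the EGFP replicates and at 47.6, 46.5 and 49.2 CPM in the OmoMYC replicates, and the groups did not overlap. Its mean fell from 60.3 ± 5.24 to 47.8 ± 1.36 CPM (SD, n = 3 each), or -0.34 on the log2 scale (SE 0.08, adjusted p = 0.00587, edgeR). The call held whichever library was left out, with adjusted p-values up to 0.0299. GADD45A (ENSG00000116717.7, chromosome 1 from 68150884 to 68154017) was at 64.8, 64.1 and 64.3 CPM with EGFP and at 73.8, 65.2 and 67.3 CPM with OmoMYC. The OmoMYC libraries were all higher, 1 of them by less than 1 CPM over the highest EGFP library. Its log2 fold change of 0.09 (95% interval -0.07 to 0.26) was not called (adjusted p = 0.299, edgeR).

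The sestrins SESN1 and SESN2 restrain the growth kinase complex mTORC1 when amino acids are short or the cell is under stress. SESN2 (ENSG00000130766.4, chromosome 1 from 28586029 to 28609002) had the largest change of the 9 genes. It was at 14.8, 17.4 and 18.2 CPM in the EGFP replicates and at 28.5, 25.8 and 31.2 CPM in the OmoMYC replicates. The highest EGFP library stood well below the lowest OmoMYC library. The mean rose from 16.8 ± 1.78 to 28.5 ± 2.70 CPM (SD, n = 3 each), 1.69-fold, or 0.76 on the log2 scale (SE 0.11, adjusted p = 0.000223, edgeR). SESN1 (ENSG00000080546.9, chromosome 6 from 109305512 to 109416049) was at 13.2, 9.67 and 10.9 CPM with EGFP and at 15.4, 15.96 and 15.1 CPM with OmoMYC. Its groups did not overlap, and EGFP replicate 1 was the highest of its group. The mean rose from 11.3 ± 1.80 to 15.5 ± 0.445 CPM, 1.37-fold, or 0.46 on the log2 scale (SE 0.12, adjusted p = 0.00773, edgeR). Without EGFP replicate 2 the log2 fold change of SESN1 was 0.33 and the call was lost (adjusted p = 0.0591). SESN3, a sestrin that is driven by FOXO factors rather than by p53, was at 34.6 ± 5.62 CPM in EGFP libraries and 36.3 ± 2.56 CPM in OmoMYC libraries (log2 fold change 0.07, adjusted p = 0.643, edgeR).

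TP53INP1 (ENSG00000164938.9, chromosome 8 from 95938200 to 95961606) encodes a stress-induced protein that acts in p53 phosphorylation and in autophagy. It was at 42.8, 33.3 and 31.4 CPM in the EGFP replicates and at 55.8, 57.6 and 53.5 CPM in the OmoMYC replicates. All OmoMYC libraries lay above all EGFP libraries, of which replicate 1 was the highest. The mean rose from 35.8 ± 6.08 to 55.6 ± 2.05 CPM (SD, n = 3 each), 1.55-fold, or 0.63 on the log2 scale (SE 0.11, adjusted p = 0.000863, edgeR). Over the libraries left out in turn, the log2 fold change stayed between 0.51 and 0.77 and was called each time.

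RRM2B (ENSG00000048392.7, chromosome 8 from 103216730 to 103251189) is the p53-inducible small subunit of ribonucleotide reductase and supplies deoxynucleotides for repair. It was at 26.0, 20.02 and 17.5 CPM with EGFP and at 22.0, 22.6 and 20.2 CPM with OmoMYC. The OmoMYC libraries lay inside the range of the EGFP libraries. Its log2 fold change was 0.03 (95% interval -0.26 to 0.32, adjusted p = 0.870, edgeR), and it ran from -0.13 without EGFP replicate 3 to 0.19 without EGFP replicate 1. ZMAT3 (ENSG00000172667.6, chromosome 3 from 178677909 to 178790003), an RNA-binding protein that regulates splicing, was at 68.0, 62.8 and 56.0 CPM with EGFP and at 61.6, 63.8 and 60.0 CPM with OmoMYC. Here too the OmoMYC libraries lay inside the EGFP range. Its log2 fold change was -0.01 (95% interval -0.20 to 0.17, adjusted p = 0.923, edgeR), and 0.04 without EGFP replicate 1. As a percent of the mean, the SD was larger among EGFP than among OmoMYC libraries in 8 of the 9 genes. The share of all tested genes with this order was not counted. For RRM2B the SD was 20.7% of the mean with EGFP and 5.78% with OmoMYC, whereas for GADD45A it was 0.58% and 6.51%.

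**Figure D2:**
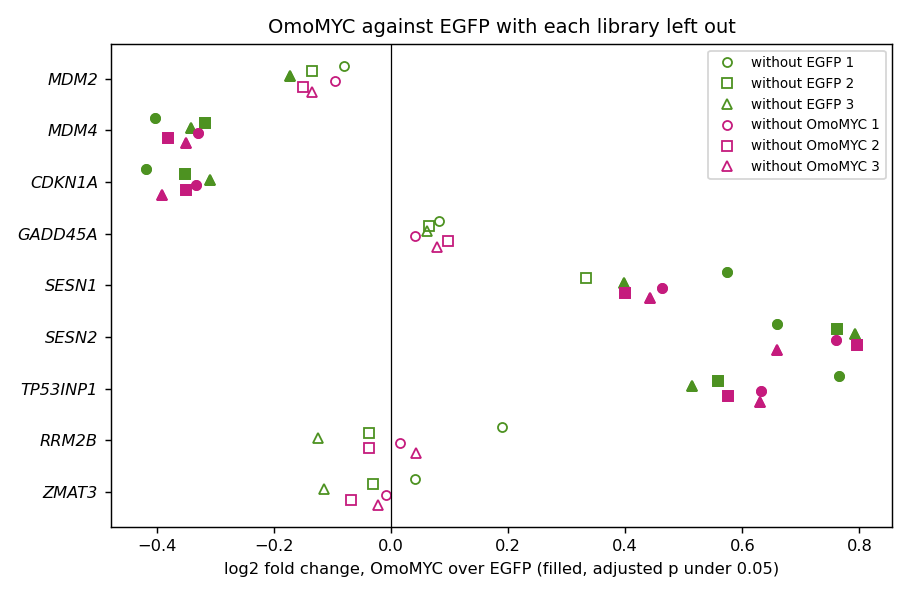
Log2 fold change of OmoMYC over EGFP (horizontal axis) of each gene with 1 library left out at a time; filled points have an adjusted p under 0.05. MDM4, CDKN1A, SESN2 and TP53INP1 are filled throughout, SESN1 is open without EGFP replicate 2, and MDM2 is filled only without EGFP replicate 3.

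Other genes of the pathway were taken from lists written from general knowledge. Of 28 further p53 target genes 27 were tested, and 10 rose and 8 fell (66.7% called, against 53% of all tested genes), and the median log2 fold change was -0.04. The pro-apoptotic BH3-only genes of this list differed in direction. BBC3, which encodes PUMA, was at 1.51, 1.79 and 2.17 CPM with EGFP and at 3.75, 3.997 and 5.20 CPM with OmoMYC. It rose 2.36-fold (log2 fold change 1.24, SE 0.19, adjusted p = 0.000357, edgeR). PMAIP1, which encodes NOXA, was at 55.4, 49.8 and 41.5 CPM with EGFP and at 26.4, 22.7 and 21.9 CPM with OmoMYC. It fell by 1.05 on the log2 scale (SE 0.12, adjusted p = 5.22e-05), and neither gene's groups overlapped. FUCA1, which encodes the lysosomal alpha-L-fucosidase, had the largest change of the list, from 1.01 ± 0.0549 to 12.8 ± 1.04 CPM (SD, n = 3 each), 12.5-fold (adjusted p = 1.79e-08). Of targets that serve in DNA replication or repair, PCNA (log2 fold change -0.71), POLH (-0.56) and DDB2 (-0.38) fell and XPC rose (0.25). The stress kinases PLK2 (0.47) and PLK3 (0.56), the oxidoreductase TP53I3 (0.55) and CYFIP2 (0.78) rose. PHLDA3 (0.49) and FDXR (0.39) rose as well. The antiproliferative BTG2 (-0.38), TRIAP1 (-0.49) and the death receptor TNFRSF10B (-0.25) fell. FAS and EDA2R, both called, had means below 1 CPM over the 6 libraries. Apart from FUCA1, the targets named without replicate values were chosen after their values were seen, and all of them were called. Without OmoMYC replicate 3, 6 rather than 10 genes of the list were called higher, and 2698 rather than 3766 of all genes.

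Of 12 regulators of p53, 3 rose and 4 fell (58.3% called, close to the 53% of all tested genes), and the median log2 fold change was -0.14. HIPK2, a kinase that phosphorylates p53, rose from 490 ± 43.6 to 641 ± 25.5 CPM (log2 fold change 0.39, adjusted p = 0.00156, edgeR). The acetyltransferase KAT5 (0.31, adjusted p = 0.0178) and the ubiquitin ligase RCHY1 (-0.50, adjusted p = 0.0240) were called, but each lost the call when single libraries were left out, KAT5 without EGFP replicate 2 or any OmoMYC replicate and RCHY1 without EGFP replicate 2 or either of OmoMYC replicates 1 and 3. Without any 1 of EGFP replicate 2, OmoMYC replicate 1 and OmoMYC replicate 3, 0 regulators were called lower. Over all genes these fits called 3078, 2842 and 3014 lower, against 3545 with all libraries.

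Paralogues of the 9 genes gave a contrast within families. Their list of 9 also holds RRM1, which is a partner subunit of RRM2B and not a paralogue. Of the list 8 were tested, and 4 rose and 2 fell (75% called, against 53% of all tested genes, median log2 fold change 0.15). TP53INP2, an autophagy protein related to TP53INP1, was at 45.3, 50.2 and 54.8 CPM with EGFP and at 132, 140 and 132 CPM with OmoMYC. It rose 2.69-fold (log2 fold change 1.43, SE 0.08, adjusted p = 4.79e-07, edgeR). GADD45G rose 1.70-fold (log2 fold change 0.77, adjusted p = 0.000354), while GADD45A was not called. ZMAT1 rose by 0.61 on the log2 scale (adjusted p = 0.00427), while ZMAT3 was not called. RRM1 (-0.57), the large subunit of ribonucleotide reductase, and RRM2 (-0.49), its S-phase small subunit, both fell, while RRM2B was not called. CDKN1B, the p27 relative of CDKN1A, rose (0.22, adjusted p = 0.0176), and CDKN1C, the p57 relative, was at -0.23 (adjusted p = 0.0567). Whether a paralogue differed from its member in response was not tested.

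SESN2 is also a target of ATF4, the transcription factor of the amino acid and unfolded protein responses, so a list of 13 ATF4-related genes was set beside it. Of these, 2 rose and 9 fell (84.6% called, against 53% of all tested genes, of which 25.7% as lower), and the median log2 fold change was -0.35. PPP1R15A (log2 fold change 1.13, adjusted p = 2.02e-05, edgeR) and TRIB3 (1.12, adjusted p = 3.93e-05) rose. ATF4 itself fell (-0.21, adjusted p = 0.0213), as did the amino acid synthesis genes ASNS (-0.72), PSAT1 (-0.71) and PHGDH (-0.54). DDIT4, which like the sestrins restrains mTORC1, fell from 31.0 ± 2.93 to 15.7 ± 0.418 CPM (log2 fold change -0.98, adjusted p = 1.73e-05). SESN2 thus rose where most genes of this list fell, and whether ATF4 has a part in its level was not tested.

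**Figure D3:**
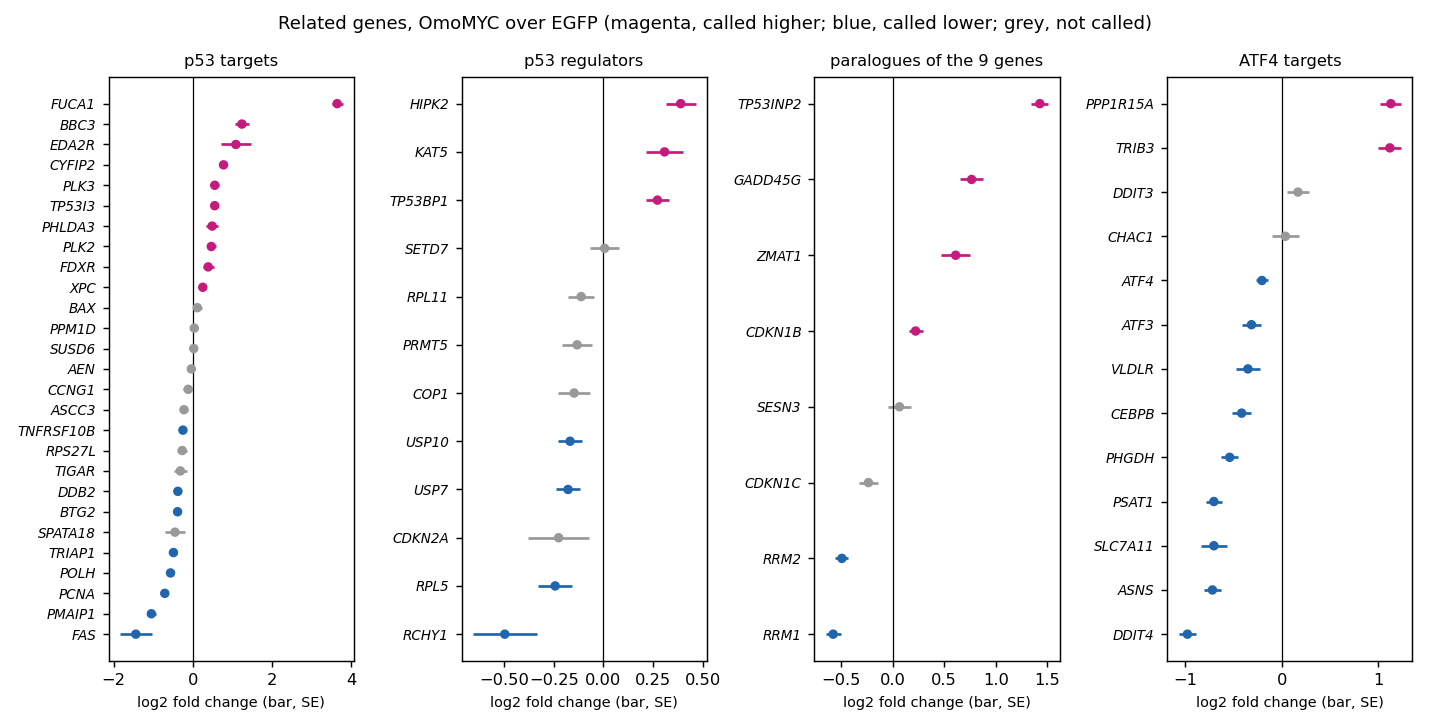
Log2 fold change of OmoMYC over EGFP (horizontal axes, bars are the standard error) for each tested gene of the 4 lists; magenta genes were called higher, blue genes lower, and grey genes were not called. The p53 target list holds 10 magenta and 8 blue genes, and the ATF4 list 2 magenta and 9 blue genes.

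By likeness over the 14 libraries, with log2 CPM centred within each experiment, the genes closest to MDM2 among 13424 genes were MYEF2 (Pearson's r = 0.955), CACNA2D1 (0.953) and TWSG1 (0.952). Those closest to CDKN1A were ATOH8 (0.973), TP53I13 (0.970) and PTPRU (0.967). These values describe the libraries, which share their treatment, depth and composition, and the genes were picked as the highest of all.

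The second comparison asked whether dTAG47 changes p53 target genes in cells without a tagged protein. Of the 9 genes 0 were called (edgeR), against 0.159% of all tested genes, 0.117% as higher and 0.0415% as lower. An unadjusted p below 0.05 (edgeR) was found for 1 of the 9, ZMAT3, and for 1053 of the 14470 tested genes. DESeq2 also called 0 of the 9. The groups overlapped in all 9 genes, and did not overlap in 3.34% of all tested genes. The log2 fold changes ran from -0.15 (ZMAT3) to 0.05 (SESN2), 7 of them below and 2 above 0, with a median of -0.09 against -0.00182 for all tested genes. Of the 4 lists, 0 genes were called in either direction by edgeR, while DESeq2 and the fit without a filter each called 1 gene of the ATF4 list higher. In that list DDIT4 stood at 36.4 ± 3.398 CPM in DMSO libraries and at 49.1 ± 6.25 CPM in dTAG47 libraries, without overlap of the groups (log2 fold change 0.43, adjusted p = 0.0567, edgeR), and is named after its values were seen.

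The genes that had moved with OmoMYC were bounded closely here. SESN2 was at 9.66, 10.5, 11.4 and 12.7 CPM with DMSO and at 11.7, 10.7, 10.8 and 12.5 CPM with dTAG47. The difference was 0.05 on the log2 scale (95% interval -0.13 to 0.23, adjusted p = 0.865, edgeR). SESN1 was at 11.9 ± 1.38 with DMSO and 11.9 ± 0.801 CPM with dTAG47 (SD, n = 4 each), which is -0.01 on the log2 scale (95% interval -0.18 to 0.16). TP53INP1 was at 42.2, 42.9, 38.5 and 39.0 CPM with DMSO and at 36.3, 42.6, 37.5 and 33.8 CPM with dTAG47. The difference was -0.11 on the log2 scale (95% interval -0.25 to 0.03, adjusted p = 0.680). CDKN1A was at 34.6, 36.7, 39.6 and 40.6 CPM with DMSO and at 36.4, 37.5, 40.6 and 40.3 CPM with dTAG47, and its log2 fold change was 0.03 (95% interval -0.09 to 0.16). In each of these genes the libraries of both treatments overlapped. MDM4 was at 231 ± 8.25 with DMSO and 218 ± 13.1 CPM with dTAG47 (log2 fold change -0.09, 95% interval -0.18 to 0.01). GADD45A (-0.05) had an interval of -0.14 to 0.04 and RRM2B (-0.10) one of -0.28 to 0.09.

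**Figure D4:**
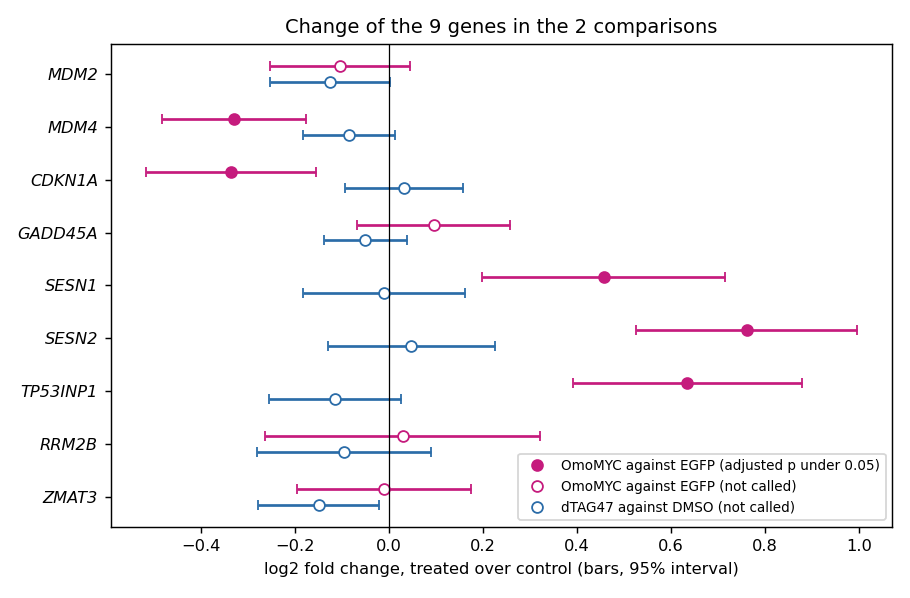
Log2 fold change (horizontal axis) with its 95% interval for each gene, OmoMYC over EGFP in magenta and dTAG47 over DMSO in blue; filled points have an adjusted p under 0.05. The 5 filled points are MDM4 and CDKN1A below 0 and SESN1, SESN2 and TP53INP1 above 0, and all 9 blue points are open.

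MDM2 and ZMAT3 depended on how the replicates were treated. MDM2 was at 147, 149, 132 and 132 CPM in DMSO replicates 1 to 4 and at 128, 143, 124 and 117 CPM in the dTAG47 replicates. ZMAT3 was at 86.1, 86.7, 78.4 and 75.4 CPM with DMSO and at 75.7, 80.5, 70.7 and 67.4 CPM with dTAG47. In both genes the groups as wholes overlapped. Among replicates 1 and 2, and again among 3 and 4, both dTAG47 libraries lay below both DMSO libraries. The share of all tested genes with this order in both pairs of replicates was not counted. Replicates 1 and 2 stood apart from 3 and 4, a split known from an earlier analysis of these data and given no name by the labels. In both treatments the mean of replicates 3 and 4 was below that of replicates 1 and 2 for MDM2, MDM4, SESN1, TP53INP1, RRM2B and ZMAT3, and above it for CDKN1A and SESN2. With DMSO the means were 148 and 132 CPM for MDM2, 86.4 and 76.9 CPM for ZMAT3, and 35.6 and 40.1 CPM for CDKN1A. Without a term for the split, the log2 fold changes were -0.13 for MDM2 (SE 0.06, adjusted p = 0.673, edgeR) and -0.15 for ZMAT3 (SE 0.06, adjusted p = 0.673). With a factor for replicates 1 and 2 against 3 and 4, they were -0.13 (SE 0.03, adjusted p = 0.0207) and -0.15 (SE 0.03, adjusted p = 0.00688), and both genes were called lower. The other 7 genes were not called with it, against 5.49% of all tested genes that were. Within replicates 1 and 2 alone the log2 fold changes were -0.11 for MDM2 and -0.13 for ZMAT3 (adjusted p = 0.720 and 0.679, edgeR), and within replicates 3 and 4 alone -0.13 and -0.16 (adjusted p = 0.00727 and 0.00671). These fits called 0.0483% and 6.17% of all genes they tested. The log2 fold changes of both genes thus stayed between -0.16 and -0.11 in these fits, while the calls differed.

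**Figure D5:**
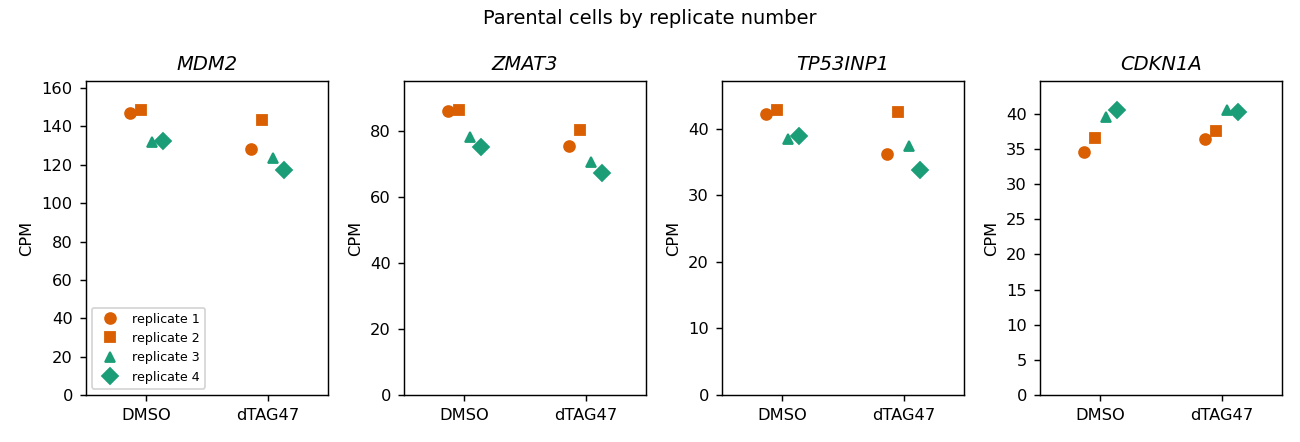
Expression in CPM (vertical axes, from 0) of MDM2, ZMAT3, TP53INP1 and CDKN1A in parental cells, with 1 point per library, orange for replicates 1 and 2 and green for replicates 3 and 4. Within each colour MDM2 and ZMAT3 are lower with dTAG47 than with DMSO, and replicates 3 and 4 lie below 1 and 2 in MDM2 and ZMAT3 and above them in CDKN1A, within each treatment.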

How the data were processed

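RNA was depleted of ribosomal RNA before sequencing. According to the paper's methods, adapters were removed with Cutadapt and reads were placed on hg19 by STAR, and FeatureCounts gave the value of each gene. The deposited tables therefore hold raw whole-number counts. The annotation and the strand setting are not given in the sources used here. Reads of MDM2 and TP53INP1 therefore cannot be told apart from those of genes that overlap them on the opposite strand. Overlaps were looked for only among the genes that were counted here. The replicates are biological replicates in the study's methods. Each experiment was analysed on its own in R 4.3.3 with edgeR 4.0.16 (filterByExpr, TMM, robust quasi-likelihood test, Benjamini-Hochberg adjustment over all tested genes, threshold 0.05). Log2 fold changes are treated over control, and intervals use the standard error and degrees of freedom of that fit. Alternatives were DESeq2 1.42.0, limma-voom (limma 3.58.1), other scaling and filters, a replicate block, a split of the parental replicates, and leaving out each library. For log2 CPM, edgeR's prior count was 2. Coordinates, start sites and exon lengths come from GENCODE annotation on GRCh37.

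The members and lists were chosen with earlier results of these data known. Named beyond the 9 members were the 3 genes of each list with the largest absolute log2 fold change among those called in the OmoMYC experiment with a mean of at least 1 CPM over both groups, and the 3 genes most like MDM2 and CDKN1A. Other genes were named after their values were seen.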

Additional observations from a re-analysis of the deposited data

How the results depend on the processing

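With OmoMYC, the calls of MDM4, CDKN1A, SESN2 and TP53INP1 held under all 14 alternatives, that of SESN1 under 13, and MDM2 was called under 1. Leaving out single libraries gave 2 to 3 members called higher and 2 to 3 called lower, 6 to 10 p53 targets called higher and 0 to 6 regulators called lower. Over all genes the same fits called 2698 to 4065 higher and 2842 to 4184 lower, against 3766 and 3545 with all libraries. RRM2B ran from -0.126 to 0.190 on the log2 scale and ZMAT3 from -0.114 to 0.0407 over the libraries left out, and ZMAT3 was at 0.00411 with library size only. RRM2B had a negative sign without EGFP replicate 2 (-0.04), EGFP replicate 3 or OmoMYC replicate 2 (-0.04). These genes were not called in any of them.

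With dTAG47, all tested genes gave 17 called higher and 6 lower. The counts were 44 and 15 with DESeq2, 11 higher with library size only, 306 and 362 with the replicate block, 374 and 420 with the factor for the split, 4 and 3 in replicates 1 and 2, and 426 and 470 in replicates 3 and 4 (the last pair of fits chosen after seeing the data). Leaving out single libraries gave 4 to 52 higher and 2 to 32 lower. The 2 members called lower with the replicate block, the factor and replicates 3 and 4 were MDM2 and ZMAT3. With the block MDM2 was at -0.13 (adjusted p = 0.0203, edgeR) and ZMAT3 at -0.15 (adjusted p = 0.00788). In each of these 3 fits 1 regulator was called higher and 1 paralogue lower. Of the ATF4 list 1 gene was called higher with DESeq2, no filter, the block and replicates 3 and 4, and 0 to 1 of it and 0 to 1 regulator over the libraries left out. Signs turned for genes that were not called: SESN1 was at 0.0589 and SESN2 at -0.0516 in replicates 3 and 4, RRM2B at 0.0017 in replicates 1 and 2, and over the libraries left out SESN1 ran from -0.0743 to 0.0567, SESN2 from -0.0119 to 0.125 and CDKN1A from -0.00853 to 0.0708. The cause of these changes was not tested.

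Same-numbered libraries did not reach a correlation of their deviations from the group means above 0.1 in every pair, so they were not treated as paired. The correlations of same-numbered libraries over genes were 0.076, -0.0697 and 0.293 in the OmoMYC experiment and 0.0093, 0.109, 0.101 and 0.159 in the parental one, and those of libraries with different numbers ran from -0.291 to 0.252 and from -0.226 to 0.247. The block changed no call of a member with OmoMYC. With the longest transcript in place of all exons, GADD45A stayed highest and SESN1 lowest in every group. For MDM2 and CDKN1A this length gave 18.7 and 16.7 CPM per kilobase with DMSO, and 17.12 and 17.07 with dTAG47. In both of these groups the libraries of MDM2 and CDKN1A overlapped. For MDM4 and CDKN1A this length gave 27.7 and 26.6 CPM per kilobase with EGFP, and 21.98 and 21.08 with OmoMYC. The libraries of MDM4 and CDKN1A overlapped in both the EGFP and the OmoMYC group.

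The lowest count of the 9 genes in any library was 270 (SESN1, EGFP replicate 2), and counting error was not set apart from the spread between libraries.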
